A study of Mus musculus with 6 samples.

Results

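Claudins and occludin are the membrane proteins that form the strands of tight junctions between neighbouring epithelial cells. A total of 8 genes were examined, 7 claudins (Cldn2, Cldn3, Cldn4, Cldn7, Cldn12, Cldn15 and Cldn23) and occludin (Ocln), of 22700 genes with an identifier in the deposited table. They were chosen by name, as junction genes of the intestinal epithelium. RNA came from the mucosa of the middle small intestine of C57BL/6 mice, from 3 mice with alk-SMase knockout (KO), giving libraries K79S, K82S and K86S, and from 3 wild type (WT) mice, giving W83S, W89S and W90S. Each mouse gave 1 library. Alk-SMase, encoded by Enpp7, is the brush border enzyme that splits dietary sphingomyelin. In the KO mice Cre recombinase had removed exon 2 of Enpp7, which shifts the reading frame. The sources name no treatment of either group. Age and sex of the mice are not given in the sources used here.

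A claudin spans the membrane 4 times, and its extracellular loops pair with those of the neighbouring cell. Some claudins seal the space between cells, and others line it with pores for small ions, so that the mixture of claudins sets which solutes pass between cells. Cldn2 and Cldn15 are pore-forming claudins that let sodium and other cations through, and in the small intestine this returns sodium to the lumen for nutrient uptake. Cldn3 and Cldn4 are counted among the sealing claudins. Cldn7 lies mostly along the lateral membrane and is also needed for cell adhesion to the matrix. Occludin belongs to the separate MARVEL family and lies in the same strands.

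The identifiers in the deposited table did not stand beside the values of their own genes, and were re-paired with rows by the ranks of the values. The number of printed decimals shows how well this worked, since a gene with a single transcript is printed with 6 decimals or fewer. After re-pairing, 99.7% of the 3649 genes with 1 annotated transcript had such a row, and 5.80% of the 8748 genes with more. With identifiers left as deposited these shares were 33.9% and 34.3%. The offsets between the rankings had themselves been chosen to fit the decimals, so this describes the fit and is not independent evidence for it. All 8 genes obtained a row with the decimals that their transcripts call for, but 6 of them would also fit the row above and 4 the row below, so that this says little of each gene. Within 100 ranks of each of them the decimals fitted for 91.5% to 98.5% of genes, and for 54.7% to 63.5% when the pairing was moved by 1 row. Every value below rests on this re-pairing.

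The values are FPKM, fragments per kilobase of transcript, corrected for the number of mapped reads, so that levels can be compared between genes. Comparison between libraries also depends on how the libraries are scaled, and other scalings are given below. The table holds no read counts, so the depth behind a single value is unknown, and errors come from the variation among mice. Columns summed to between 393152 FPKM (K79S) and 495362 FPKM (W89S). Enpp7 itself read 605 (K79S), 129 (K82S) and 669.7 FPKM (K86S) in KO mice and 406 (W83S), 667 (W89S) and 495 FPKM (W90S) in WT mice, and a value for the whole gene does not report on 1 lost exon, so the genotype could not be checked. W83S stood apart by stomach genes, since the 7 of 12 gastric markers with a row summed to 38547 FPKM there and to at most 5.46 FPKM in the other 5 libraries. K79S stood apart by Y-linked genes, since Ddx3y was at 0.0279 FPKM and Eif2s3y was listed at 0, against at least 2.93 and 5.69 FPKM in the other libraries. K82S and W89S had the lowest sums of 10 proximal small intestine markers (2306 and 3286 FPKM, against 4254 to 9673 FPKM) and the highest sums of 5 distal markers (1658 and 922 FPKM, against 353 to 739 FPKM). All 9 epithelial markers were present, summing to between 8489 and 11461 FPKM in KO and between 7595 and 11173 FPKM in WT.

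The genes lie on 5 chromosomes of the mm10 genome (GRCm38, GENCODE M21 annotation). Cldn3 (chromosome 5, from 134986214 to 134987472, plus strand) and Cldn4 (chromosome 5, from 134945119 to 134946934, minus strand) are genes of 1 exon each and stand 39279 bp apart. The last 40 bp of Cldn3 overlap the antisense gene Wbscr25, so reads there cannot be assigned without strand. Cldn15 (from 136966616 to 136975858, plus strand) and Cldn12 (from 5489537 to 5514958, minus strand) also lie on chromosome 5. Cldn2 lies on the X chromosome (from 139800828 to 139811386, plus strand), Cldn7 on chromosome 11 (from 69964779 to 69967885, plus strand), Cldn23 on chromosome 8 (from 35824712 to 35826559, minus strand) and Ocln on chromosome 13 (from 100496507 to 100552718, minus strand).

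The 250 bases before the RefSeq start site (build GRCm38.p6) are shown for 4 genes, in the direction of the gene. These are Cldn2, Cldn15, Cldn3 and Cldn7. Of all pairs, Cldn2 and Cldn15 had the largest root mean square difference between centred log2 values (1.69) and Cldn3 and Cldn7 the smallest (0.08). Centred means that each gene's mean over the 6 libraries was subtracted. This measure also grows with the spread of a gene between libraries, which was widest for Cldn2. For Cldn15 this start lies inside the GENCODE gene, and for Cldn7 the first of 2 listed starts was taken. Capitals mark a match to TTTATG, the core bound by CDX factors of the intestine, or to the TATA box TATAAA.
Cldn2, chrX:139800558-139800807, plus strand: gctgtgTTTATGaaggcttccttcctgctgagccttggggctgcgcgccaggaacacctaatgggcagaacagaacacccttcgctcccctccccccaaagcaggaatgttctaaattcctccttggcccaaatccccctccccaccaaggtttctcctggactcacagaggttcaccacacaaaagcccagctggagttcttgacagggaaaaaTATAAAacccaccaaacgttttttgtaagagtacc
Cldn15, chr5:136967619-136967868, plus strand: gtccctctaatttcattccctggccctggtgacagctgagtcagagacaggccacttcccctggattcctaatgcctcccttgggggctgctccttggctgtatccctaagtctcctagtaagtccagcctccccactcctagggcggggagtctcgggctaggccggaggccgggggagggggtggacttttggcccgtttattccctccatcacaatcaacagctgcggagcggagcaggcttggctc
Cldn3, chr5:134985964-134986213, plus strand: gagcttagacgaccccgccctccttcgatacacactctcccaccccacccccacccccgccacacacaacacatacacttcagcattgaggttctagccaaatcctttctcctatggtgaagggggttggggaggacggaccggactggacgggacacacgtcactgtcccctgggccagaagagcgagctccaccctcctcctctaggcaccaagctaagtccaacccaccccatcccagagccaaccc
Cldn7, chr11:69964529-69964778, plus strand: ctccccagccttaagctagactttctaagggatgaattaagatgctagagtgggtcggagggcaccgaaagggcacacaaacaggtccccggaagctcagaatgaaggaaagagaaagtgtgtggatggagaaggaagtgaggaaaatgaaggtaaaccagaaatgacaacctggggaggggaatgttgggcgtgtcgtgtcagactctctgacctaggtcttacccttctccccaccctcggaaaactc
Both strands were searched for 5 motifs, TTTATG (in 10.8% of all 32851 windows of this length), TATAAA (12.4%), the GATA motif AGATAA (9.99%), the HNF4 motif CAAAGTCCA (0.384%) and the HNF1 motif (0.00913%). Of the 7 genes with a window in the RefSeq table, Cldn2 held TTTATG once, from 244 to 239 bases before the start, and TATAAA once, from 35 to 30 bases before the start. The 2 matches do not overlap. The other 6 genes held none of the 5 motifs in these windows, which says only that these letters are not there. Cldn23 had no entry.

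The 8 genes formed a high and a low group by level. Cldn7, with 451 FPKM on average over the 6 libraries, was the highest, ahead of Cldn3 (374 FPKM), Cldn15 (267 FPKM) and Cldn4 (193 FPKM). A wide step followed, with Cldn4 above Cldn23 in 6 of 6 libraries, by 7.35 times (geometric mean), and no overlap between their ranges. Cldn23 (25.5 FPKM), Ocln (24.0 FPKM), Cldn2 (16.7 FPKM) and Cldn12 (4.77 FPKM) made up the low group. Cldn7 stood above Cldn3 in 6 of 6 libraries, although only by 1.21 times. Cldn3 was above Cldn15 in 5 of 6 libraries, Cldn15 above Cldn4 in 4, and Cldn23 above Ocln in 3, so that neither Cldn15 and Cldn4 nor Cldn23 and Ocln could be ordered against the spread between mice. Ocln was above Cldn2 in 5 of 6 libraries, and Cldn2 above Cldn12 in 5.

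**Figure D1:**
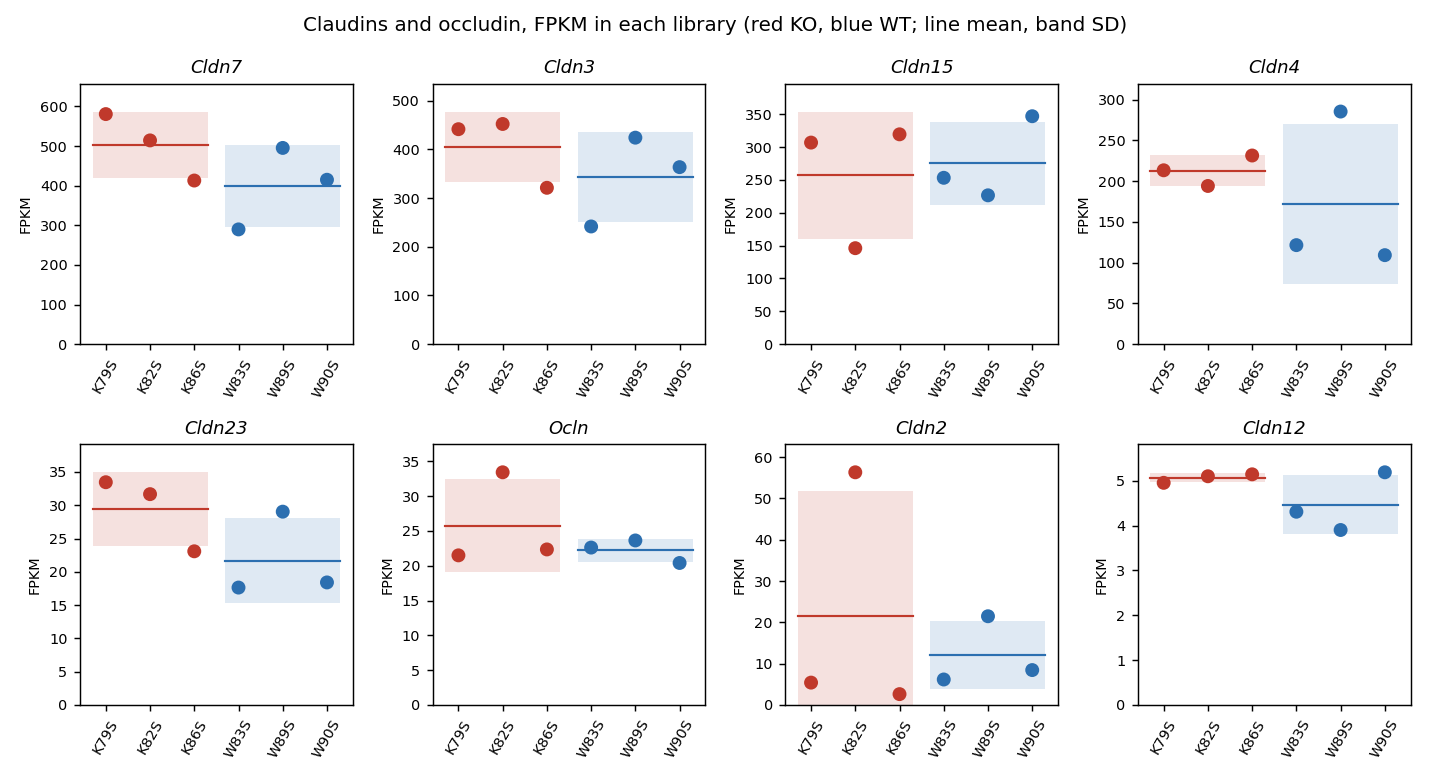
FPKM of each gene (vertical axis, linear, from 0) in each library (horizontal axis), in order of mean level, with KO in red and WT in blue, the line at the group mean and the band at ± 1 SD (n = 3). KO and WT values overlap in all 8 panels, and Cldn2 runs from 2.61 FPKM in K86S to 56.3 FPKM in K82S.

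KO was compared with WT to see whether loss of alk-SMase goes with altered junction genes. In the fit over all genes, 0 of the 8 genes passed the thresholds (adjusted p under 0.05 together with a change of more than 1.5 times in either direction, limma on log2(FPKM + 1) with Benjamini-Hochberg adjustment), and 1 of 13089 tested genes did (0.00764%). All 8 had passed the filter on low values. None of the 8 had an unadjusted p-value under 0.05, which 12.5% of tested genes had, and none had KO and WT values free of overlap, which 5.9% of tested genes had with all KO libraries higher and 11.3% with all KO libraries lower. The log2 fold change of KO over WT was above 0 for 6 of the 8 genes, beside 42.3% of tested genes, with a median of 0.22 against -0.06 over all tested genes. The adjusted p-values lay between 0.458 and 0.983. With 3 mice per genotype, the smallest p an exact permutation test allows is 0.1. In bulk RNA, fewer cells of a type and less RNA per cell cannot be told apart. Leaving out K82S brought 9.28% of tested genes past the thresholds, and leaving out both K82S and W83S 8.88%, but 0 of the 8. Leaving out both K82S and W89S brought 0.0243% past them, again 0 of the 8. There the KO values all exceeded the WT values for Cldn4 and Cldn23, beside 19.4% of tested genes, and all lay below them for Cldn2, beside 38.3%. Cldn2 also lay below without K82S and W83S, beside 38.4%. Without K86S the KO values of Cldn3, Cldn7 and Cldn23 exceeded the WT values (beside 12.5%), and without W90S those of Cldn12 (beside 9.56%). As nothing says that the mice were bred or handled independently of each other, the p-values measure the spread between these 6 libraries.

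**Figure D2:**
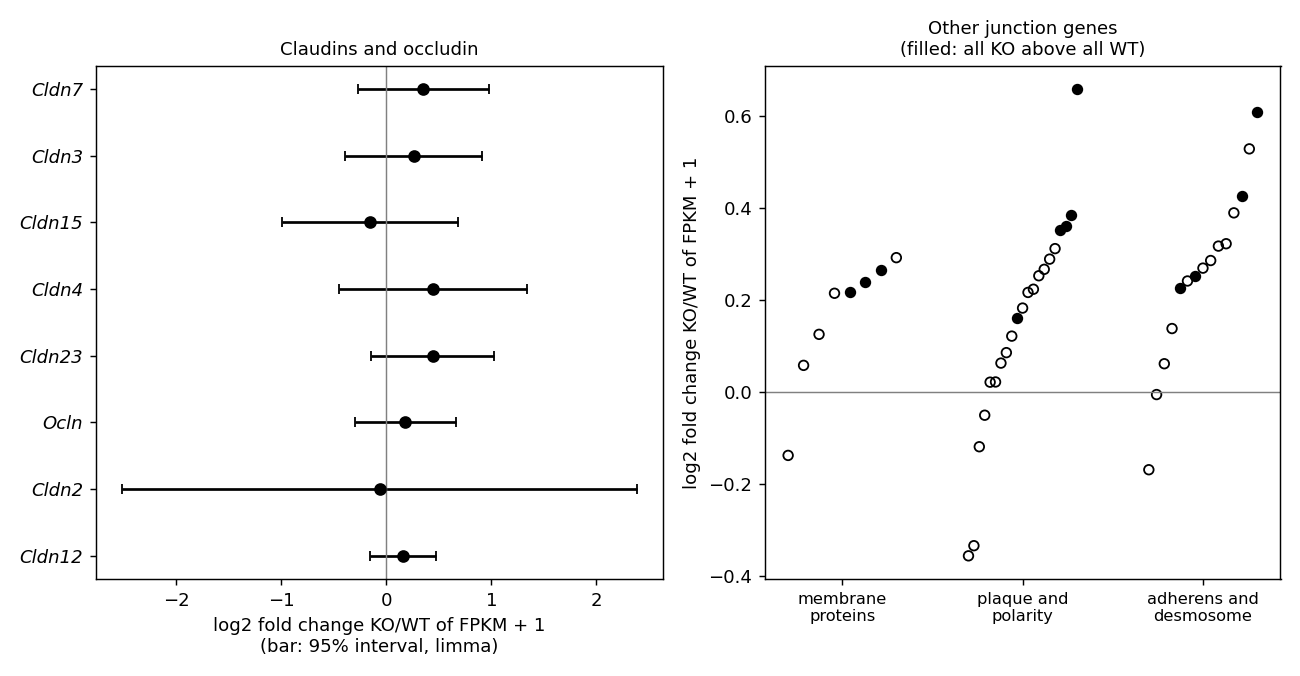
Left, log2 fold change of KO over WT on the log2(FPKM + 1) scale for the 8 genes, with the 95% interval from limma, which includes 0 for every gene. Right, the same quantity for the other junction genes tested, in 3 lists, where filled points are the 12 genes whose KO values all exceed the WT range and the horizontal spread only separates the points.

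Among the pore-forming claudins, Cldn2 varied most between mice. It had 5.40 (K79S), 56.3 (K82S) and 2.61 FPKM (K86S) in KO mice and 6.16 (W83S), 21.5 (W89S) and 8.44 FPKM (W90S) in WT mice. The highest and the lowest library were both KO, 21.55 times apart, and in each genotype 1 library stood far above the other two. Its residual SD of 1.61 on the log2 scale was above that of 99.4% of tested genes, whose median was 0.244. The log2 fold change was -0.065, with a 95% interval from -2.52 to 2.39 (adjusted p = 0.983 from limma, exact permutation p = 0.9), so a change of several fold in either direction was not detectable. Without K82S the log2 fold change became -1.26, with both remaining KO values below all WT values, beside 32.3% of tested genes (adjusted p = 0.213 from limma), and without K86S it became 0.74.

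Cldn15, the more abundant cation pore, was low in K82S and W89S, the libraries with the highest Cldn2. It had 307 (K79S), 146 (K82S) and 320 FPKM (K86S) in KO mice and 253 (W83S), 227 (W89S) and 347 FPKM (W90S) in WT mice. K82S was the lowest library and W89S the next, and the other 4 lay between 253 and 347 FPKM in both genotypes. KO over WT came to -0.16 ± 0.35 (log2 fold change and its standard error, limma adjusted p = 0.870) and turned to 0.21 without K82S. Set against each other, Cldn2 amounted to 38.5% of Cldn15 in K82S and to 9.47% in W89S, but to between 0.818% and 2.43% in the remaining libraries. The level of the X-linked Cldn2 in K79S, the library nearly without Y-linked transcripts, lay between those of K86S and W83S.

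K82S and W89S, in which Cldn2 was high and Cldn15 low, also differed from the other 4 libraries in markers of position along the gut. Of 10 proximal markers, 8 were lower in both than in any other library, among them Fabp1 and Rbp2, which carry fatty acids and retinol, Lct (lactase), and Gata4, a transcription factor of the proximal small intestine. Gata4 had 11.3 and 25.4 FPKM in K82S and W89S, against 34.3 to 47.2 FPKM elsewhere. Of the 5 distal markers with a row, 2 were higher in both, Slc51a and Slc51b, the subunits of the transporter that passes bile acids to the blood. Slc51b had 715 and 404 FPKM in K82S and W89S, against 121 to 216 FPKM elsewhere. Cubn, the third most abundant distal marker, did not follow, with 29.8 and 29.3 FPKM in these 2 libraries and 14.9 to 63.6 FPKM in the others. Of the other 6 junction genes, only Ocln had both libraries outside the range of the other 4, with 33.4 and 23.6 FPKM against 20.4 to 22.6 FPKM. For Ocln, W89S was only just above W83S (22.6 FPKM). One of the pair was KO and the other WT. The part of gut position in the levels of Cldn2 and Cldn15 was not tested.

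Of 4540 genes with a mean of at least 10 FPKM, the one whose pattern over the 6 libraries was closest to that of Cldn2 was Nr1h4, which encodes the bile acid receptor FXR. Nr1h4 had 13.5 (K79S), 61.8 (K82S) and 7.44 FPKM (K86S) in KO mice and 9.74 (W83S), 32.4 (W89S) and 13.9 FPKM (W90S) in WT mice, with the same 3 highest libraries in the same order and K86S lowest for both genes. The root mean square difference between their centred log2 values was 0.38, where Cldn2 itself had a root mean square spread of 1.31. The closest pattern to Cldn15 was that of Acaa1b, a thiolase of peroxisomal fat breakdown, at 0.06. It had 63.2, 32.7 and 64.8 FPKM in the KO libraries and 53.7, 49.9 and 70.9 FPKM in the WT libraries. Each such match, here and below, is the closest of 4540 genes over only 6 libraries. How close the nearest gene comes for other genes was not tested, so no link in function or regulation is drawn from these matches.

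**Figure D3:**
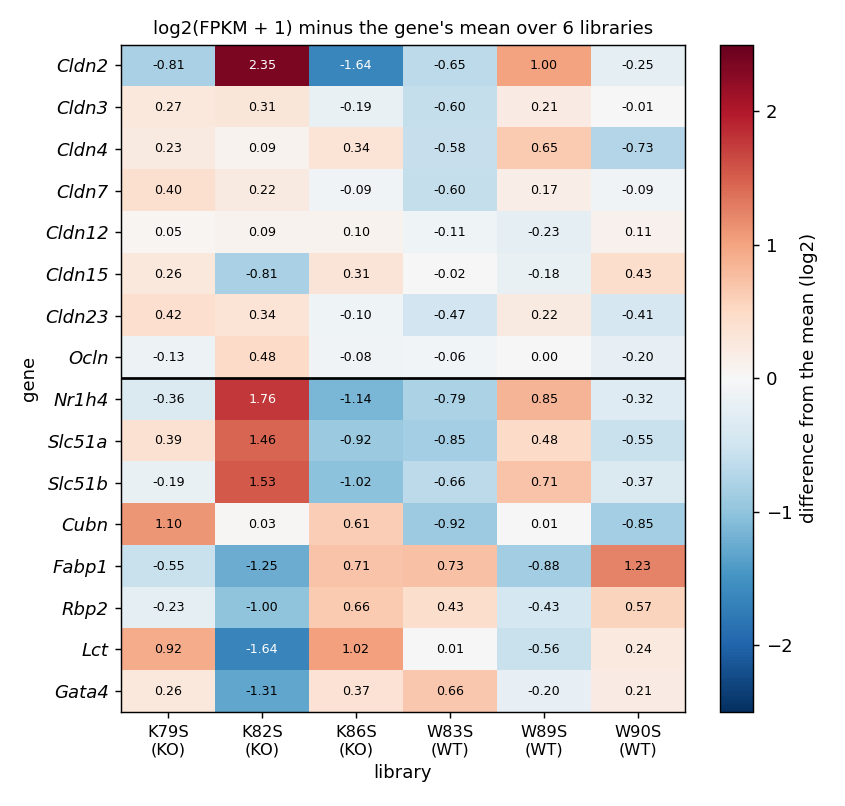
Each cell gives log2(FPKM + 1) of a gene minus its mean over the 6 libraries (colour scale and printed number), with the 8 junction genes above the line and Nr1h4, distal markers (Slc51a, Slc51b and Cubn) and proximal markers (Fabp1, Rbp2, Lct and Gata4) below it. K82S and W89S are positive for Cldn2 (2.35 and 1.00), Nr1h4, Slc51a and Slc51b, and negative for Cldn15 (-0.81 and -0.18), Fabp1, Rbp2, Lct and Gata4.

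The abundant sealing and lateral claudins, Cldn3 and Cldn7, moved together from mouse to mouse. Cldn7 had 581 (K79S), 514 (K82S) and 413 FPKM (K86S) in KO mice and 289.7 (W83S), 495 (W89S) and 415 FPKM (W90S) in WT mice. Cldn3 had 441, 452 and 321 FPKM in the KO libraries and 242, 424 and 363 FPKM in WT mice. W83S was the lowest library for both, and the remaining WT libraries lay inside the KO range. The root mean square difference of their centred log2 values was 0.08, the smallest of the 28 pairs among the 8 genes. For both, the closest pattern outside the family was that of Relb, a subunit of NF-kappa-B, at 0.06 for Cldn3 and 0.05 for Cldn7. Mean levels were 502.7 ± 84.5 FPKM in KO and 399.98 ± 104 FPKM in WT for Cldn7 (SD, n = 3), a log2 fold change of 0.35 (95% interval from -0.27 to 0.97, adjusted p = 0.577 from limma). For Cldn3 the log2 fold change was 0.26 (95% interval from -0.39 to 0.91, adjusted p = 0.700 from limma). Without W83S, the library with stomach transcripts, these values were 0.13 for Cldn7 and 0.03 for Cldn3. They were 0.48 and 0.42 without K86S, and 0.52 and 0.43 without W89S. The part of the stomach transcripts in the levels of W83S was not tested.

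Cldn4, the chromosomal neighbour of Cldn3, lay closer in pattern to Cldn23 (root mean square difference 0.31) than to Cldn3 (0.42). It had 213 (K79S), 194 (K82S) and 232 FPKM (K86S) in KO mice, a narrow range, and 122 (W83S), 286 (W89S) and 109 FPKM (W90S) in WT mice. The highest and the lowest library were both WT, and the KO libraries lay between W89S and the other WT libraries. Its log2 fold change was 0.44 (95% interval from -0.45 to 1.34, adjusted p = 0.627 from limma, exact permutation p = 0.4). Without W89S the KO values all exceeded the remaining WT values (beside 12.5% of tested genes) and the log2 fold change was 0.88, still not past the threshold (adjusted p = 0.541 from limma). It was 0.26 without W83S and 0.19 without W90S, the other WT libraries. Cldn4 amounted to between 30.1% (W90S) and 72.1% (K86S) of Cldn3, so the neighbouring genes did not keep a fixed ratio. The nearest pattern was that of the predicted gene Gm10060, at a root mean square difference of 0.11.

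Cldn23, a claudin of the differentiated surface epithelium, had the lowest p-value of the 8 genes between the genotypes. It had 33.5 (K79S), 31.7 (K82S) and 23.1 FPKM (K86S) in KO mice and 17.6 (W83S), 29.0 (W89S) and 18.4 FPKM (W90S) in WT mice. Only W89S of the WT libraries reached into the KO range. The log2 fold change was 0.44 (95% interval from -0.15 to 1.03), the unadjusted p-value was 0.119, and the adjusted p was 0.458, both from limma. The log2 fold change was 0.32 without W83S and 0.66 without W89S, where the KO values all exceeded the remaining WT values (beside 12.5% of tested genes, adjusted p = 0.541 from limma). An exact permutation test gave p = 0.2. Across libraries Cldn23 varied like Cldn7 (root mean square difference 0.15), and the nearest gene outside the family was Jund, an AP-1 transcription factor, at 0.035.

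Ocln and Cldn12 were the steadiest of the 8 genes. Ocln had 21.5 (K79S), 33.4 (K82S) and 22.3 FPKM (K86S) in KO mice and 22.6 (W83S), 23.6 (W89S) and 20.4 FPKM (W90S) in WT mice. All libraries apart from K82S lay between 20.4 and 23.6 FPKM, and the log2 fold change of 0.18 (95% interval from -0.30 to 0.66, adjusted p = 0.719 from limma) went to -0.02 without K82S. Cldn12, a claudin that lacks the usual anchor motif for the junction plaque, had 4.96, 5.10 and 5.15 FPKM in the KO libraries and 4.31, 3.90 and 5.19 FPKM in the WT libraries. The highest and lowest of these differed by 1.33 times, and its residual SD of 0.122 exceeded that of 13.3% of tested genes only. Its log2 fold change was 0.16, with the narrowest interval of the 8 genes, from -0.16 to 0.47 (adjusted p = 0.625 from limma). It was 0.08 without W89S and 0.25 without W90S. The patterns nearest to them were those of Slu7, a splicing factor (0.04 from Ocln), and Cmtm6, a membrane protein with a MARVEL domain (0.03 from Cldn12).

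The make-up of the claudins was dominated by the same 4 genes in every library. The 7 claudins summed to 1586 (K79S), 1400 (K82S) and 1316 FPKM (K86S) in KO mice and to 934 (W83S), 1486 (W89S) and 1267 FPKM (W90S) in WT mice, lowest in the library with stomach transcripts. Cldn3, Cldn4, Cldn7 and Cldn15 made up between 93.3% (K82S) and 97.7% (K86S) of the sum. Cldn7 alone took 34.9% ± 3.06 in KO and 32.4% ± 1.21 in WT, and Cldn3 took 28.2% ± 3.96 and 27.7% ± 1.59 (SD, n = 3). The share of Cldn15 ran from 10.4% in K82S and 15.3% in W89S to 27.1% in W83S and 27.4% in W90S. The share of Cldn2 was 4.03% in K82S, 1.45% in W89S and at most 0.666% elsewhere. The 2 libraries with the lowest Cldn15 share were thus those with the highest Cldn2 share, 1 in each genotype.

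**Figure D4:**
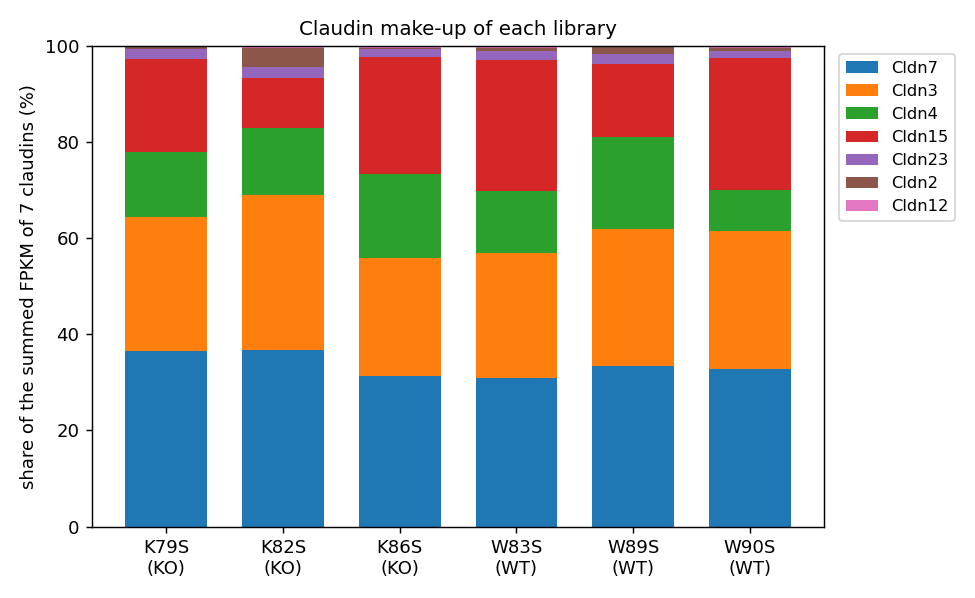
Share of each claudin in the summed FPKM of the 7 claudins (vertical axis, percent) in each library (horizontal axis, genotype in brackets). Cldn3, Cldn4, Cldn7 and Cldn15 fill between 93.3% and 97.7% of each bar, and the band of Cldn15 is narrowest in K82S (10.4%) and W89S (15.3%).

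Of 25 other claudin genes, 6 had an identifier in the table and 0 had a row after re-pairing, so they were not analysed here. Further junction genes were taken from 3 lists, of which 44 of 55 genes were tested. None of the 44 passed the thresholds, with adjusted p-values between 0.393 and 0.992 from limma, and 4 had an unadjusted p-value under 0.05, beside 12.5% of all tested genes. The log2 fold change was above 0 for 37 of the 44 (84.1%, beside 42.3% of tested genes), with a median of 0.23 against -0.06. The lowest KO value exceeded the highest WT value for 12 of them (27.3%, beside 5.9% of tested genes), and the reverse held for 0. When each library was scaled to the epithelial markers in place of the deposited scale, 3 of the 44 had all KO libraries above (6.82%, beside 3.23% of tested genes), and with scaling to the upper quartile it was 16 (36.4%, beside 9.44%). Cdh1 is both an epithelial marker and one of these genes.

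Of 8 other membrane proteins of the tight junction, 7 had a log2 fold change above 0 (beside 42.3% of all tested genes) and 3 were free of overlap with KO higher (beside 5.9%). Lsr, which marks tricellular contacts, had 148 (K79S), 124 (K82S) and 108 FPKM (K86S) in KO mice and 100.2 (W83S), 133 (W89S) and 114 FPKM (W90S) in WT mice, so the genotypes overlapped. F11r, the adhesion molecule JAM-A, had 124, 108 and 113 FPKM in KO and 93.8, 92.3 and 105 FPKM in WT, without overlap (log2 fold change 0.24, adjusted p = 0.512 from limma). Crb3, a polarity protein, had a log2 fold change of 0.22 with overlap. Marveld2 (tricellulin) and Marveld3, the relatives of occludin, were the other 2 without overlap, with log2 fold changes of 0.22 and 0.27 (adjusted p = 0.442 and 0.440 from limma), and were named after their values were seen.

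Of 21 plaque and polarity genes tested, 17 had a log2 fold change above 0 (beside 42.3% of all tested genes) and 5 had every KO value above the WT range (beside 5.9%). Tjp3 (ZO-3) and Epb41l4b, which were among the most abundant, had log2 fold changes of -0.05 and 0.12 and overlapping genotypes. The 5 were Tjp1 (ZO-1), Magi3, Mpp5, Arhgef2 and Arhgap17, named after their values were seen. Arhgef2, which encodes an activator of the GTPase RhoA, had 10.3 (K79S), 9.93 (K82S) and 7.14 FPKM (K86S) in KO mice and 5.33 (W83S), 5.52 (W89S) and 5.21 FPKM (W90S) in WT mice. Its log2 fold change of 0.66 (standard error 0.16) was the highest of the 44 and did not pass (adjusted p = 0.393 from limma).

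Of 15 adherens junction and desmosome genes tested, 13 had a log2 fold change above 0 (beside 42.3% of all tested genes) and 4 were free of overlap with KO higher (beside 5.9%). Cdh17, Ctnna1 and Ctnnb1, the most abundant, encode an intestinal cadherin and the catenins alpha and beta, and had log2 fold changes of 0.14, 0.23 and -0.01. Every KO value exceeded the WT range for Ctnna1, Cdh1 (E-cadherin), Dsc2 and Jup, of which the last 3 were named after their values were seen. Cdh1 had 175 (K79S), 167 (K82S) and 158 FPKM (K86S) in KO mice and 143 (W83S), 143 (W89S) and 133 FPKM (W90S) in WT mice (log2 fold change 0.25, adjusted p = 0.484 from limma). Jup, the plakoglobin of desmosomes and adherens junctions, had 92.0, 66.3 and 66.3 FPKM in KO and 35.5, 60.4 and 51.9 FPKM in WT (log2 fold change 0.61, adjusted p = 0.393 from limma). The lowest Jup value was that of W83S, the library with stomach transcripts, whose part was not tested.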

How the data were processed

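Total RNA of 6 mice was sequenced as single-end reads. From trimmed reads (trim-galore), alignment by HISAT2 against mm10 and assembly by StringTie, the authors deposited FPKM per gene and library. Versions, annotation and strand handling are not given in the sources used here, nor whether a normalization with edgeR, which the authors name, reached the deposited FPKM. There were 0 columns without a sample.

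Identifiers were ranked by the K79S values beside them and rows by W83S, and joined at equal rank plus a small offset for each stretch of ranks, which earlier work on these data had set from the printed decimals. This gave 12402 of 22700 identifiers a row, down to 0.954 FPKM in W83S. The other 10298 were not analysed here. A filter left out 9611 rows that reached 1 FPKM in fewer than 2 libraries. log2(FPKM + 1) of the 13089 remaining rows, named or not, was fitted with limma 3.58.1 (lmFit, eBayes with trend) in R 4.3.3 without covariates, which was tested on simulated data. A count model does not apply to FPKM. Fold changes on this scale understate those of low genes. Exact two-sided permutation tests used scipy 1.17.1 in Python 3.11.15.

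The members, gene lists and the rule for naming genes were chosen with earlier results of these data known. The rule took the 8 genes, the 3 highest of each junction list, its genes past the threshold, up to 3 markers per list and, for each of the 8, the gene with the smallest root mean square difference of centred log2 values. One gene that the rule names is not reported here. Gata4, Enpp7, Ddx3y and Eif2s3y were added after values were seen. Lists for villus enterocytes, crypts, pancreas, smooth muscle, endothelium and plasma cells were also summed. Promoter windows came from RefSeq (GRCm38.p6). Alternatives changed the pseudocount, filter, scaling, weights, libraries or pairing.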

Additional observations from a re-analysis of the deposited data

How the results depend on the processing

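None of the 8 genes passed the thresholds under any alternative. An unadjusted limma p-value under 0.05 was reached by 2 of them without W89S, beside 1163 of 12875 tested genes. Without K82S and W83S it was reached by 1, beside 2986 of 12510, and without K82S and W89S by 2, beside 3087 of 12360. Under the other alternatives none of the 8 reached it. Genes past the threshold numbered 0 with pseudocounts of 0.1 and 0.01 and 2 with array weights. They ranged from 0 to 1184 when 1 library was left out, the highest being without K82S (1133 lower in KO), and numbered 1111 without K82S and W83S and 3 without K82S and W89S, the last chosen after seeing the data. Genes of the 8 free of overlap, all with KO higher, numbered 1 with scaling to the upper quartile (Ocln, beside 9.44% of tested genes), 1 with scaling to epithelial markers (Cldn23, beside 3.23%) and 2 with quantile normalization (Cldn7 and Ocln, beside 10.3%). In either direction the number was 0 to 3 without 1 library, 1 without K82S and W83S and 3 without K82S and W89S (Cldn2 lower, Cldn4 and Cldn23 higher in KO, Cldn4 with adjusted p = 0.0671 from limma). The median log2 fold change ran from 0.14 to 0.43 without 1 library. Cldn2 turned to 0.0043 (upper quartile), 0.0497 (quantile), 0.32 (without K79S), 0.74 (without K86S) and 0.42 (without W89S), ranging from -1.26 to 0.74 without 1 library. Cldn15 turned to 0.0239 (quantile), 0.0057 (array weights), 0.21 (without K82S), 0.02 (without W90S), 0.16 (without K82S and W83S) and 0.0785 (without K82S and W89S), ranging from -0.35 to 0.21 without 1 library. Ocln turned to -0.0163 without K82S, ranging up to 0.29 without 1 library, and to -0.0028 without K82S and W83S, where Cldn3 turned to -0.0603. With identifiers left as deposited the values were -0.31 (Cldn3), -0.49 (Cldn4), -0.0677 (Cldn12), 0.16 (Cldn15), -0.0327 (Cldn23) and -0.21 (Ocln), which belong to rows of other genes. Apart from this, causes were not tested. No paired analysis was possible because the labels do not say which KO and WT mice form a pair. Without read counts, depth limits could not be given.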

Other observations

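Markers of other cells were summed in each library. The 8 of 10 crypt markers with a row summed to 419 (K79S), 2968 (K82S) and 797 FPKM (K86S) in KO mice and to 1639 (W83S), 5730 (W89S) and 4403 FPKM (W90S) in WT mice, with Defa24 and Lyz1 of Paneth cells and Olfm4 of stem cells the most abundant. The highest crypt sum of each genotype was in the library with its highest Cldn2, K82S in KO and W89S in WT. The WT libraries had the same order for both, although among them only Defa24, Lyz1 and Axin2 of these markers were highest in W89S. Olfm4 (61.3 FPKM in W90S, 45.6 FPKM in W89S), Smoc2, Mki67, Top2a and Cdk1 were highest in W90S. The KO libraries did not have the same order for the crypt sum and Cldn2. K79S was above K86S in Cldn2 (5.40 against 2.61 FPKM) and below it in the crypt sum. Of the sum in K82S, Defa24 gave 2109 FPKM and Lyz1 816 FPKM. Olfm4 had 20.1 FPKM in K82S, against 24.8 to 61.3 FPKM in the WT libraries. Over all 6 libraries the highest crypt sum was in W89S and the highest Cldn2 in K82S. The 8 villus enterocyte markers summed to between 11852 and 22859 FPKM in KO and between 16255 and 18455 FPKM in WT. The 4 of 8 smooth muscle markers with a row summed to between 16.5 and 30.1 FPKM in KO and between 12.8 and 36.1 FPKM in WT. Of 7 endothelial markers only Esam had a row, at 0.283 to 1.34 FPKM. The 4 of 6 plasma cell markers with a row summed to between 98.5 and 241 FPKM in KO and between 93.0 and 132 FPKM in WT. The 3 of 10 pancreatic acinar markers with a row summed to 2331 FPKM in W83S and to at most 2.02 FPKM elsewhere. Nearly all of the sum in W83S was Pla2g1b (2309 FPKM), with Amy2a5 at 20.1 FPKM and Ctrb1 at 2.11 FPKM. None of these genes with a row was listed at 0 in all libraries. Their part in the junction genes was not tested.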
